A study of Mus musculus with 16 samples.

Results

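The miR-29 family was described in whole hearts of C57BL/6 mice exposed to social threat, a model of posttraumatic stress. The family was taken as the 3 probes whose names hold mmu-miR-29a, mmu-miR-29b or mmu-miR-29c, out of 1023 probes naming a mouse microRNA and 2668 probes on the array. In the exposed groups a mouse sat in a wire mesh box inside the cage of an aggressor for 6 h a day and was placed with the aggressor for short attacks. T1R1 mice had 1 day of exposure, T2R1 mice 2 days and T3R1 mice 3 days, and all of them then rested for 1 day. Control mice sat in mesh boxes in a large cage that held no aggressor, and how long they did so is not spelled out in the labels. The treatment text of the labels names longer exposures than the group codes, so the days given here are those of the codes and the design text. Each group had 4 hearts from separate mice, with total RNA from one heart per sample. No transgene or deletion was named for any group, and no sex or age was given in the sources used here.

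MicroRNAs are short RNAs that, loaded into an Argonaute protein, pair through their seed with sites in messenger RNAs and lower the output of those messages. The miR-29 family is known for targets that encode the extracellular matrix, among them fibrillar collagens, elastin and fibrillin, and in the heart it is mostly discussed in connection with fibrosis. Each precursor hairpin gives a guide strand, which is the abundant product, and a passenger (star) strand that is mostly degraded.

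The 3 guides are shown because all 3 share one seed and differ in a few bases only, which bears on how far probes can separate them. The sequences are RefSeq's, with seed bases 2 to 8 in capitals, and all 3 guides and 4 passenger strands were matched by name.
miR-29a: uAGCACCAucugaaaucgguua
miR-29b: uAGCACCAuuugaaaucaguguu
miR-29c: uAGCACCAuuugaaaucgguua
Of 1679 mature mouse microRNA names in the RefSeq table, these 3 alone carry the seed AGCACCA. Counted from the 5′ end, miR-29a and miR-29c differ by one substitution, C10U, and are identical at 21 of 22 positions. From miR-29a to miR-29b the substitutions are C10U, G18A, U21G and A22U, which leaves 18 of 22 positions identical, and miR-29b is one base longer. From miR-29c to miR-29b they are G18A, U21G and A22U, with 19 of 22 positions identical. Cross-hybridisation between the guides was not tested, so a signal named for one member can include RNA of another.

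The guides come from 4 hairpins in a pair of clusters (GRCm38.p6). Mir29a (chr6:31062660-31062747) and Mir29b-1 (chr6:31063023-31063093) lie on the minus strand with 275 bases between them. Mir29b-2 (chr1:195037040-195037120) and Mir29c (chr1:195037547-195037634) lie on the plus strand with 426 bases between them. The miR-29b guide occurs in both clusters, so its probe reads the sum of both loci. The 2 hairpins that hold it are shown with the guide in capitals, to show that both hold the same guide.
Mir29b-1: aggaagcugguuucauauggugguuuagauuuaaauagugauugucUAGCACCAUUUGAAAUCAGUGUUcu
Mir29b-2: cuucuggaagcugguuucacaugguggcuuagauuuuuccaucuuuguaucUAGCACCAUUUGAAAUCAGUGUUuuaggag
The passenger strands, which have probes of their own, are these.
miR-29a*: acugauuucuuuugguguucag
miR-29b-1*: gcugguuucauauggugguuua
miR-29b-2*: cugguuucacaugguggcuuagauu
miR-29c*: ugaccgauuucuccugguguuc

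Expression was measured on 8 locked nucleic acid microRNA arrays read in 2 colours, Hy3 (green) and Hy5 (red). Each array held 2 hearts of the same group, one per dye, so each group rests on 2 arrays: replicates 1 and 2 shared one, and replicates 3 and 4 the other. Values are normalized log2 intensities, and a difference of 1 on this scale is a doubling of the intensity after an offset of 50 was added. Folds of dim probes are therefore compressed. Between 164 and 241 mouse probes per sample exceeded the background level, set at the 95th percentile of 143 human virus probes in the same sample, and 4 or 5 of 5 cardiac muscle marker probes did so in every sample. The slide numbers fall into 2 runs, one with the control and T3R1 arrays and one with the T1R1 and T2R1 arrays. The array's alignment spots had medians of 22582 to 27785 per array in the run of T1R1 and T2R1, and of 15289 to 15755 in the run of T3R1 and control. In T1R1 or T2R1 against control, and in T3R1 against T1R1 or T2R1, run and exposure therefore cannot be told apart, while the T3R1 and control arrays share a run, as do those of T2R1 and T1R1.

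All 3 guides were detected in all 16 hearts. miR-29a stood 2.98 to 4.26 above the background level on the log2 scale, miR-29b 3.23 to 4.62 and miR-29c 1.10 to 2.41. The passenger strand probes, in contrast, were above that level in 0 of 16 samples each. Their highest values were -0.095 for miR-29a*, -0.24 for miR-29b-1*, -0.21 for miR-29b-2* and -0.34 for miR-29c*, all relative to the background level. A probe that names only the rat miR-29b-1* was likewise above it in 0 of 16 samples. Each probe is set here against the background only, because probes differ in how strongly they bind and their levels cannot be ranked against each other. The data do not say which of the 2 miR-29b loci the guide came from: both give the same guide, and neither of its passenger strands was measurable.

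**Figure D1:**
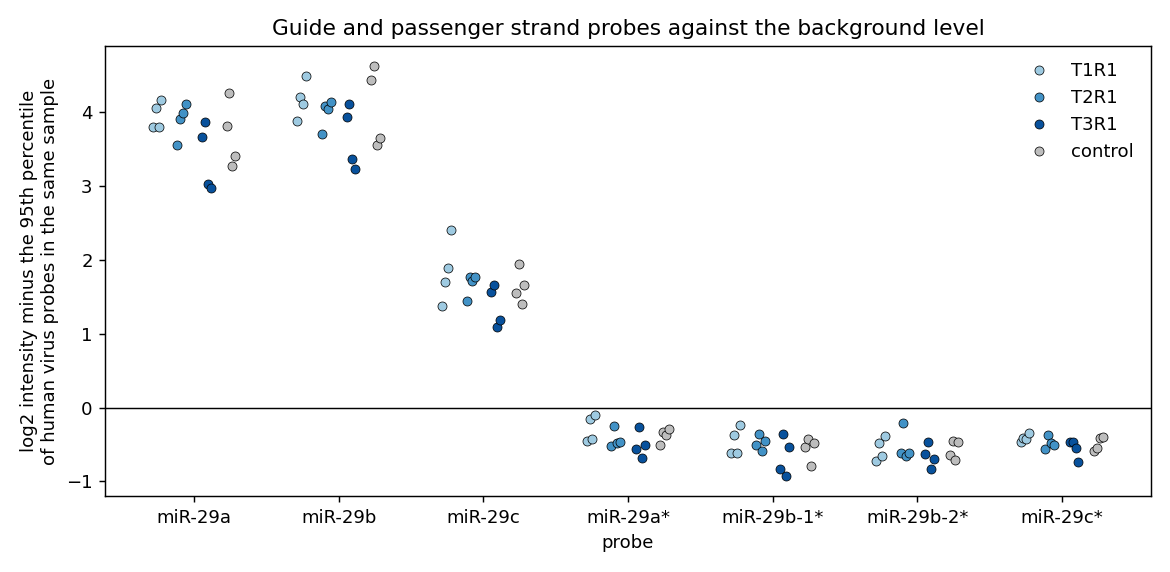
Log2 intensity minus the 95th percentile of human virus probes in the same sample (vertical axis) for the 3 guide and 4 passenger strand probes (horizontal axis), one point per heart, with T1R1, T2R1, T3R1 and control from left to right within a probe. The guides lie between 1.10 and 4.62 in all 16 samples, and all passenger strand points lie below 0.

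miR-29a, made from the chromosome 6 cluster, read 10.65, 10.77, 10.66 and 10.80 in T1R1 hearts (replicates 1 to 4). It read 10.41, 10.55, 10.83 and 10.95 in T2R1 hearts and 10.50, 10.55, 9.97 and 9.86 in T3R1 hearts. Control hearts read 10.68, 11.00, 10.12 and 10.12. The T1R1 hearts lay close together, whereas the other groups split by array, and the T3R1 and control ranges overlapped. The means ± SD (n = 4 each) were 10.72 ± 0.076 in T1R1, 10.68 ± 0.25 in T2R1, 10.22 ± 0.35 in T3R1 and 10.48 ± 0.44 in control.

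miR-29b, the member with a copy in both clusters, read 10.73, 10.92, 10.96 and 11.12 in T1R1 hearts. In T2R1 hearts it read 10.57, 10.73, 10.89 and 10.97, and in T3R1 hearts 10.78, 10.80, 10.31 and 10.11. Control hearts held both the highest values of all 16, 11.31 and 11.36, and 2 of the lowest, 10.39 and 10.36. The control range thus enclosed every T1R1 and T2R1 heart and 2 of the 4 T3R1 hearts. The means ± SD (n = 4 each) were 10.93 ± 0.16 in T1R1, 10.79 ± 0.18 in T2R1, 10.50 ± 0.34 in T3R1 and 10.86 ± 0.55 in control.

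miR-29c, made from the chromosome 1 cluster, read 8.22, 8.41, 8.74 and 9.03 in T1R1 hearts. It read 8.30, 8.41, 8.55 and 8.60 in T2R1 hearts and 8.41, 8.34, 8.04 and 8.07 in T3R1 hearts. Control hearts read 8.43, 8.69, 8.24 and 8.37. The widest group was here T1R1, not control, and the lowest 2 hearts of all 16 were T3R1 replicates 3 and 4. The means ± SD (n = 4 each) were 8.60 ± 0.36 in T1R1, 8.47 ± 0.13 in T2R1, 8.22 ± 0.18 in T3R1 and 8.43 ± 0.19 in control.

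The order of the group means was T1R1, T2R1, control, T3R1 for miR-29a and miR-29c and T1R1, control, T2R1, T3R1 for miR-29b, from high to low. No neighbours in these orders differed beyond their spread. All 3 members had their lowest mean in T3R1.

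**Figure D2:**
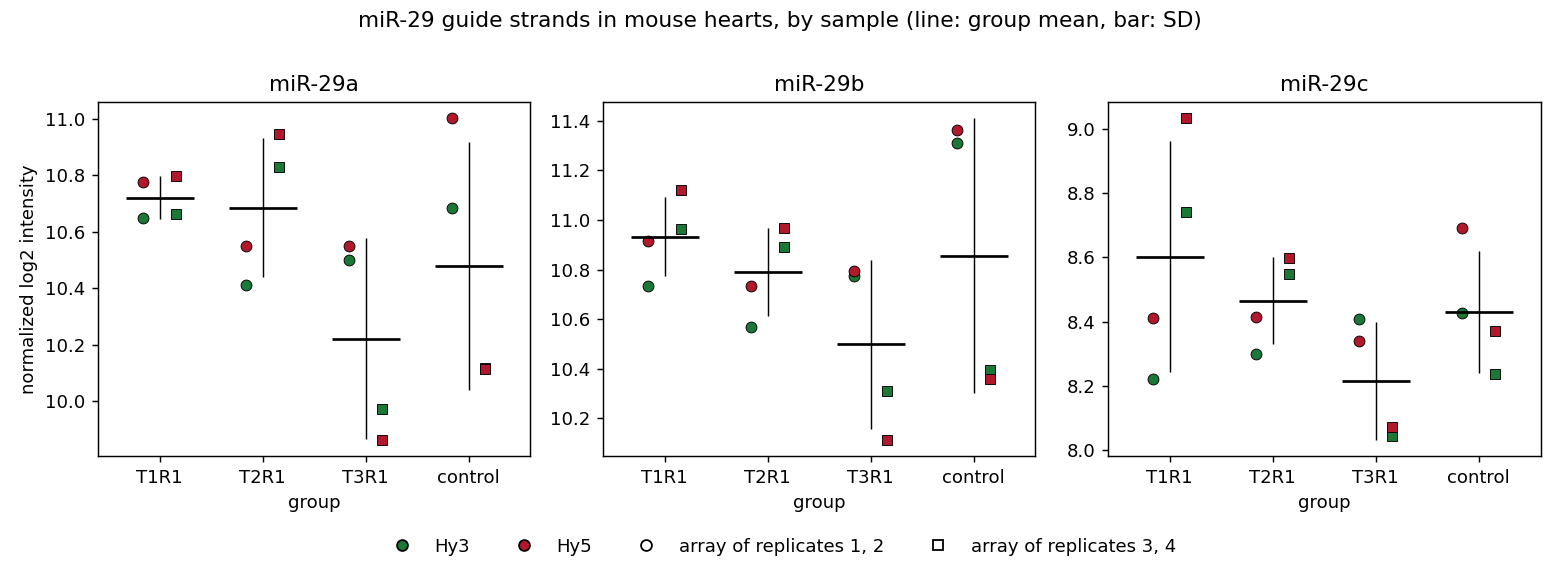
Normalized log2 intensity (vertical axes, one scale per panel, not starting at 0) of miR-29a, miR-29b and miR-29c in each heart, by group (horizontal axes). Colours mark the dye, circles and squares the 2 arrays of a group, horizontal lines the group means and vertical bars the SD of 4 hearts. Control hearts on different arrays lie 0.96 apart for miR-29b, and T3R1 has the lowest mean in every panel.

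After 3 days of exposure, the only comparison with control that lies within one slide run, all 3 members were lower on average than in control hearts, and none passed the test. The log2 difference, T3R1 minus control, was -0.26 ± 0.20 (SE) for miR-29a, with a 95% interval of -0.70 to 0.18. It was -0.36 ± 0.23 for miR-29b (-0.85 to 0.14) and -0.21 ± 0.15 for miR-29c (-0.54 to 0.11). The limma test, with p-values adjusted over 1022 mouse probes (Benjamini-Hochberg), gave adjusted p = 0.905, 0.898 and 0.905 in that order. As folds of T3R1 over control, the intervals ran from 0.617 to 1.13 for miR-29a, from 0.554 to 1.10 for miR-29b and from 0.688 to 1.08 for miR-29c, so both a decrease and a small increase lie inside them. Of the 1022 probes, 0% were called at an adjusted p under 0.05, and 73 (7.14%) had an unadjusted p under 0.05, so the comparison made no call for any microRNA. The control arrays decided the sign for 2 members. Without the array of control replicates 1 and 2, the difference was 0.11 for miR-29a and 0.12 for miR-29b. Without the array of control replicates 3 and 4, it was -0.62 and -0.84. Without the array of T3R1 replicates 3 and 4 it was 0.046 for miR-29a, while miR-29c stayed below 0 whichever array or heart was left out, between -0.37 and -0.057.

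After 1 day of exposure, none of the 3 guides differed from control beyond the error. The log2 difference, T1R1 minus control, was 0.24 ± 0.20 for miR-29a (95% interval -0.20 to 0.68), 0.077 ± 0.23 for miR-29b (-0.42 to 0.57) and 0.17 ± 0.15 for miR-29c (-0.15 to 0.50). The limma test gave adjusted p = 0.809, 0.951 and 0.813 in that order, where 0.881% of 1021 mouse probes were called. All 4 T1R1 hearts were above the control mean for miR-29a, as was the case for 13.1% of mouse probes. Leaving out the array of control replicates 3 and 4 turned the difference to -0.12 for miR-29a and -0.40 for miR-29b, and leaving out that of T1R1 replicates 3 and 4 turned it to -0.11 for miR-29c.

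After 2 days of exposure the members again lay near control. The log2 difference, T2R1 minus control, was 0.20 ± 0.20 for miR-29a (95% interval -0.23 to 0.64), -0.067 ± 0.23 for miR-29b (-0.56 to 0.43) and 0.034 ± 0.15 for miR-29c (-0.29 to 0.36). The limma test gave adjusted p = 0.886, 0.956 and 0.976 in that order, with 0.881% of 1022 mouse probes called. Without the array of control replicates 1 and 2 the difference was 0.41 for miR-29b, and without that of control replicates 3 and 4 it was -0.16 for miR-29a and -0.093 for miR-29c.

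Both comparisons above depend on how arrays were scaled to each other. Scaling by the median brightness of each array, in place of equalising the distribution of brightness, called all 3 members higher than control after 1 day, by 1.19, 1.01 and 1.00 for miR-29a, miR-29b and miR-29c (limma adjusted p = 0.00085, 0.0018 and 0.0032). It also called them higher after 2 days, by 1.12, 0.81 and 0.82 (limma adjusted p = 0.0016, 0.0098 and 0.014). Under that scaling 212 of 1021 mouse probes were called higher and 4 lower after 1 day, against 7 higher and 2 lower as reported, so the members moved with many other probes. T3R1 minus control turned positive under it, at 0.25, 0.18 and 0.22, and was not called (limma adjusted p = 0.600, 0.714 and 0.672). With no step between arrays, the median of all mouse probes was -0.59 for T1R1 minus control, 9 probes were called higher and 602 lower, and no member was called.

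**Figure D3:**
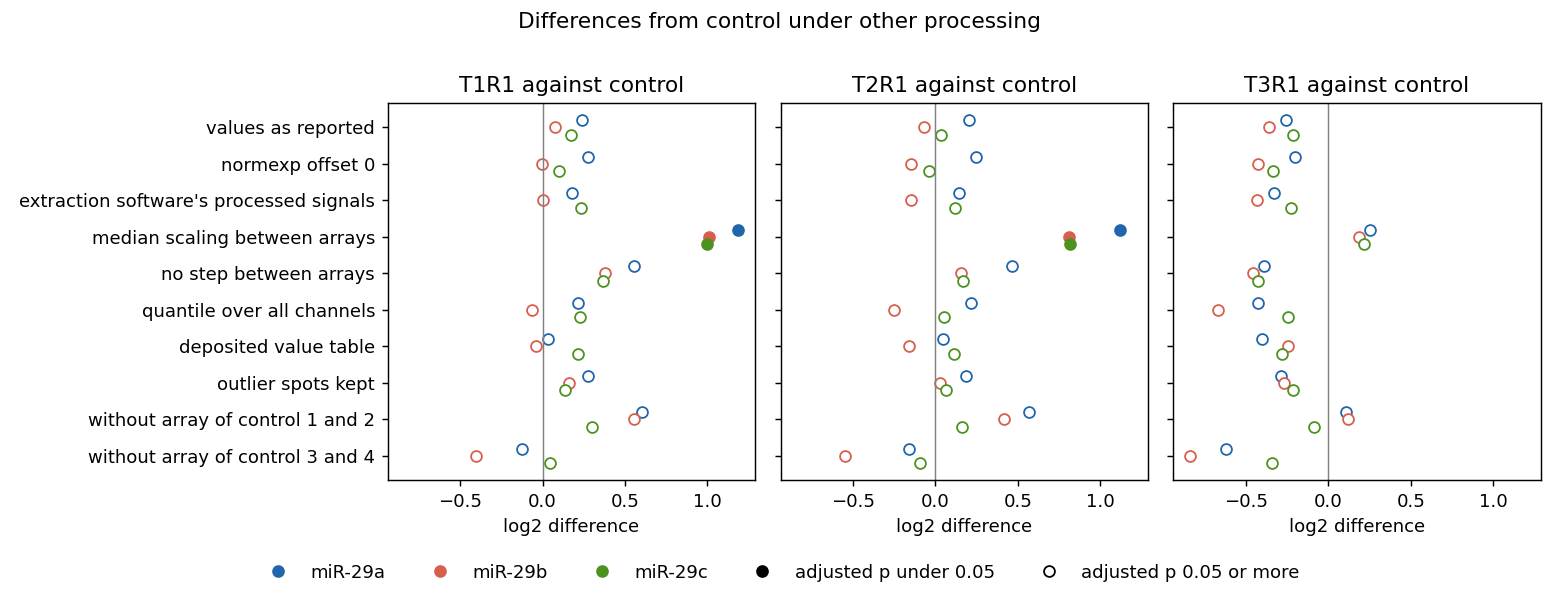
Log2 difference from control (horizontal axes) of each member for T1R1, T2R1 and T3R1 under other processing and without either control array (rows). Filled points have an adjusted p under 0.05 in limma. They occur in the row of median scaling alone, for T1R1 and T2R1, and in T3R1 against control the sign follows which control array is kept for miR-29a and miR-29b.

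Among the exposed groups, the 3-day hearts had less of all 3 guides than the 1-day hearts by the group means, and the differences did not pass the adjusted threshold. T3R1 minus T1R1 was -0.50 ± 0.20 for miR-29a (95% interval -0.94 to -0.060), -0.44 ± 0.23 for miR-29b (-0.93 to 0.060) and -0.39 ± 0.15 for miR-29c (-0.71 to -0.061). The limma test gave adjusted p = 0.254, 0.418 and 0.225 in that order, while 2.74% of 1022 mouse probes were called and 14.9% had an unadjusted p under 0.05. All 4 T3R1 hearts were below all 4 T1R1 hearts for miR-29a, a separation that 4.5% of mouse probes showed in that direction. For miR-29b and miR-29c the hearts overlapped. No heart or array left out turned the sign, with differences between -0.80 and -0.10. Without the array of T1R1 replicates 1 and 2, miR-29c was called, at -0.67 (limma adjusted p = 0.027). Under median scaling all 3 were called, at -0.93, -0.83 and -0.78 (limma adjusted p = 0.011, 0.017 and 0.031).

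T3R1 minus T2R1 was -0.46 ± 0.20 for miR-29a (95% interval -0.90 to -0.024), -0.29 ± 0.23 for miR-29b (-0.79 to 0.20) and -0.25 ± 0.15 for miR-29c (-0.57 to 0.076). The limma test gave adjusted p = 0.462, 0.759 and 0.646 in that order, with 1.08% of 1023 mouse probes called. The T2R1 and T1R1 arrays share a slide run. T2R1 minus T1R1 was -0.036 ± 0.20 for miR-29a (95% interval -0.47 to 0.40), -0.14 ± 0.23 for miR-29b (-0.64 to 0.35) and -0.14 ± 0.15 for miR-29c (-0.46 to 0.19). Here 0% of 1022 mouse probes were called by limma, 36 (3.52%) had an unadjusted p under 0.05, and adjusted p was 0.999 for each member. The 6 comparisons share groups with one another, so the low values of T3R1 enter 3 of them and are not separate evidence in each.

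**Figure D4:**
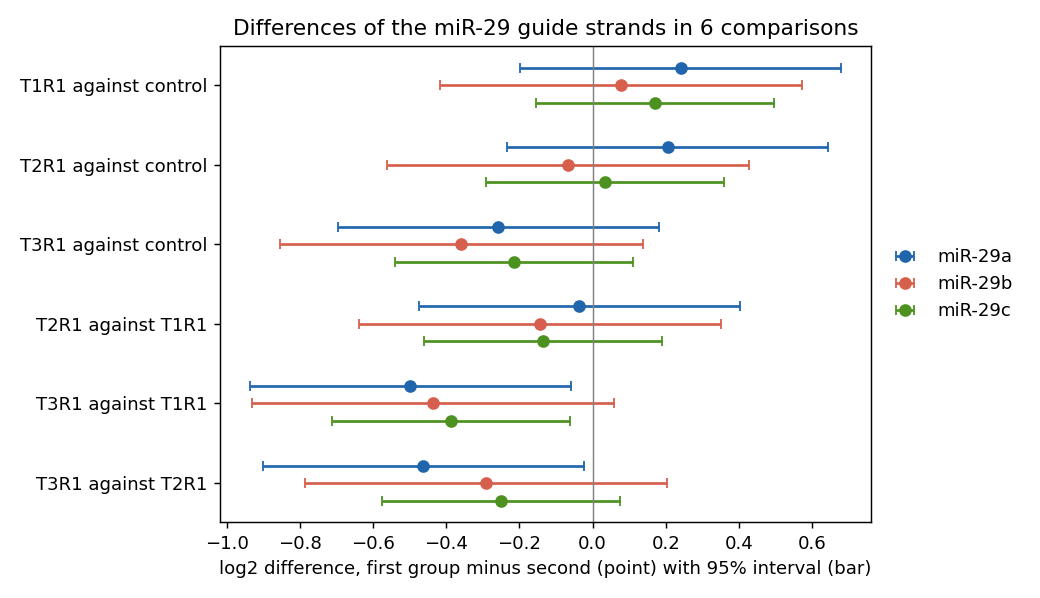
Log2 difference, first group minus second (horizontal axis), with its 95% interval for the 3 members in 6 comparisons (rows). All 9 points of T3R1 lie left of 0, from -0.50 to -0.21, and 3 of their intervals exclude 0 before adjustment over the mouse probes. The intervals rest on an array correlation of 0.25 and can be too narrow for these members.

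The spread within a group lay between arrays more than between the hearts of an array. The median absolute gap between a group's 2 arrays was 0.51, 0.43 and 0.28 for miR-29a, miR-29b and miR-29c. Between the 2 hearts of an array, after centring each dye, it was 0.043, 0.095 and 0.087. The intervals given above rest on an array correlation of 0.25, estimated over all mouse probes, against 0.643 over probes above background. These intervals can therefore be too narrow for the guides. For miR-29b in control, the array of replicates 1 and 2 averaged 11.34 and that of replicates 3 and 4 averaged 10.38, a gap of 0.96 or 1.94-fold. Among the 132 mouse probes above background in every sample, none had a larger gap between the control arrays, and their median gap was 0.15. miR-29a had a gap of 0.73 between the same arrays, exceeded by 1 of the 132 probes, and miR-29c one of 0.25, exceeded by 35. This ranking was made after the values had been seen. In T3R1 the gaps were 0.61, 0.58 and 0.32 for miR-29a, miR-29b and miR-29c, again with the array of replicates 1 and 2 higher. In T2R1 they were -0.41, -0.28 and -0.22, with that array lower, and in T1R1 -0.018, -0.22 and -0.57. The 2 hearts of an array, after centring each dye, differed by -0.25 to 0.22 over the 3 members, although these hearts came from different mice.

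Part of each probe's spots had been marked as outliers by the extraction software and were left out, namely 13 of 64 for miR-29a, 7 of 64 for miR-29b and 10 of 64 for miR-29c, against 1.69 to 5.52% of all spots per sample. The miR-29b values of control replicates 1 and 2 rest on 2 of 4 spots each, and the miR-29c value of T2R1 replicate 4 rests on 1 spot. With these spots kept, T3R1 minus control was -0.29, -0.27 and -0.21 for miR-29a, miR-29b and miR-29c, so the order of size between miR-29a and miR-29b changed and no sign did. None of the spots of the 3 guides was saturated.

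The members varied together from heart to heart. With each dye centred, Pearson's r over the 16 samples was 0.92 between miR-29a and miR-29b, 0.74 between miR-29a and miR-29c, and 0.76 between miR-29b and miR-29c. Within groups, with the group means removed, it was 0.95, 0.63 and 0.69 for the same pairs. These are descriptions: hearts on one array share its hybridisation, and the guides could share signal through their near-identical sequence.

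Among 129 other mouse probes above background in every sample, those most like a member by Pearson's r over the 16 samples included muscle and endothelial microRNAs. For miR-29a they were the muscle microRNA miR-133a (0.88), miR-30c (0.85), miR-125b-5p (0.85), miR-23b (0.83) and the shared probe of miR-378 and miR-378b (0.83). For miR-29b they were miR-125b-5p (0.88), miR-133a (0.84), the endothelial miR-126-3p (0.83), miR-30c (0.83) and miR-130a (0.78). For miR-29c they were miR-126-5p (0.92), miR-195 (0.90), miR-133a (0.90), miR-133b (0.89) and miR-30b (0.87). miR-133a was thus on all 3 lists. The median r over all 129 probes was 0.24, 0.11 and 0.24 for miR-29a, miR-29b and miR-29c, and these points share array and normalization.

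Other microRNAs known to repress collagens, connective tissue growth factor or further matrix genes were set beside the family. This list was chosen with earlier results of these data known. It also holds miR-133a, miR-133b, miR-30b, miR-30c and miR-378, named above among the probes most like a member. Its signs and calls are therefore a description and not separate evidence. Of 20 such microRNAs, all on the array, 19 were lower and 1 higher in T3R1 than in control by the sign of the difference. Their median was -0.15 against -0.0014 over all mouse probes, of which 49.1% were above 0. Most mouse probes lay near background, with 224 of 1023 above it in at least 4 samples. Over the 223 of these that were tested, the median was 0.0035. Of the 20, 15 were above background in all 8 hearts of T3R1 and control and 4 in none. Those 4 were miR-101b (-0.010), miR-18a (-0.014), miR-200b (-0.068) and miR-200c (0.035), the last being the 1 that was higher. In this comparison 0 of the 20 were called by limma. An unadjusted p under 0.05 was reached by 7, where 7.14% of mouse probes reached it. In T3R1 against T1R1, 6 of the 20 were called lower and 0 higher, where 1.96% of mouse probes were called lower, and the list's median was -0.25 against -0.013 over all mouse probes. Tested alone, the probes above background had a median of -0.057 there, with 12 of 223 called lower. In T3R1 against T2R1, 2 were called lower and 0 higher (0.684% of mouse probes were called lower). These counts depended on the processing. In T3R1 against T1R1, median scaling gave 12 lower calls on the list, outlier spots kept 7, no array block 6, the replicate block 5 and probes above background only 4. Over all mouse probes these settings gave 83, 21, 28, 17 and 12 lower calls, of 1022 or 1023 tested, or of 223 for the last. A single lower call, miR-30a, was left with offset 0, the processed signals, quantile normalization, the values of the authors' deposited table, the array correlation of 0.643 or the samples of an array averaged, and 0 with no step between arrays. In that order, lower calls over all mouse probes were 4, 2, 6, 3, 4, 1 and 0. With 1 heart or array left out, the list had between 1 and 8 lower calls in that comparison, where 2 to 31 mouse probes were called lower. It had 1 lower call without T3R1 replicate 3 or 4, without T1R1 replicate 3 or 4, and without the array of T3R1 replicates 3 and 4 or of T1R1 replicates 3 and 4.

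The member of that list with the lowest adjusted p was miR-30a, a guide of the miR-30 family, which targets connective tissue growth factor. It read 8.27, 8.41, 8.49 and 8.53 in T1R1 hearts and 8.44, 8.55, 8.42 and 8.45 in T2R1 hearts. It read 7.80, 7.60, 7.74 and 7.70 in T3R1 hearts, against 7.62, 7.69, 7.83 and 7.84 in control hearts. T3R1 and control overlapped, and both lay below all T1R1 and T2R1 hearts. Of the mouse probes, 3.13% had all T1R1 hearts above all control hearts, and 3.03% all T2R1 hearts. All T3R1 hearts lay below all T1R1 hearts for 4.5%, and below all T2R1 hearts for 3.81%. The means of miR-30a were 8.43 ± 0.12 in T1R1, 8.47 ± 0.057 in T2R1, 7.71 ± 0.086 in T3R1 and 7.75 ± 0.11 in control (SD, n = 4 each). The log2 difference was 0.68 ± 0.074 for T1R1 minus control and 0.72 ± 0.074 for T2R1 minus control (limma adjusted p = 0.00026 and 6.3e-05). T3R1 minus T1R1 was -0.72 ± 0.074 and T3R1 minus T2R1 was -0.76 ± 0.074 (limma adjusted p = 0.00014 and 6.5e-05). The call in T1R1 against control did not pass once each array's 2 hearts were averaged, and both T3R1 calls were lost with no step between arrays. No heart or array left out ended any of these 4 calls. T3R1 and control differed by -0.036 ± 0.074 (limma adjusted p = 0.987). Unlike the miR-29 guides, miR-30a was thus split along the slide runs with little spread inside them, and run and exposure cannot be told apart for it. The other calls in T3R1 against T1R1 were miR-133b (-0.63), miR-30b (-0.52), miR-30d (-0.30), miR-26a (-0.27) and miR-378/miR-378b (-0.59), with limma adjusted p from 0.023 to 0.036. miR-30b was also lower in T3R1 than in T2R1, at -0.48 (limma adjusted p = 0.048). The leukocyte microRNA miR-150, which is on this list too, was lower in T2R1 than in control, at -0.25 (limma adjusted p = 0.0070).

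Of the microRNAs enriched in fibroblasts or known to promote fibrosis, all 11 were on the array, on 10 probes since miR-199a-3p and miR-199b share one, and 0 were called by limma in any of the 6 comparisons. In T3R1 against control, 6 of the 10 probes had a positive difference and 4 a negative one, with a median of 0.022 against -0.0014 over all mouse probes. An unadjusted p under 0.05 was reached by 3 of the 10, where 7.14% of mouse probes reached it. Median scaling called 2 of the 10 higher in that comparison, miR-199a-5p and miR-214, where 32 of 1022 mouse probes were called higher. Without the array of control replicates 1 and 2 miR-21 was called higher, where 6 of 1022 mouse probes were. With no step between arrays, miR-155, miR-433 and miR-192 were called lower, where 707 of 1022 mouse probes were. Each of these 3 was above background in 0 T3R1 and 0 control hearts. miR-21, which is induced in fibroblasts of the stressed heart, read 7.27, 7.61, 7.41 and 7.83 in T3R1 hearts, against 7.24, 7.64, 6.40 and 6.73 in control hearts. Control replicate 3 was below its background level of 6.84, and control replicate 4 was just above its level of 6.71. The difference for miR-21 was 0.52 ± 0.19 (limma adjusted p = 0.467), and its control hearts were split by array as those of miR-29a and miR-29b were. miR-214 read 7.53, 7.77, 7.37 and 7.45 in T3R1 hearts, against 7.19, 7.33, 7.12 and 7.16 in control hearts, without overlap. Such a separation in that direction was shown by 1.66% of mouse probes. The difference for miR-214 was 0.33 ± 0.079 (limma adjusted p = 0.301). Both lay above the control mean in 4 of 4 T3R1 hearts, a direction opposite to that of the miR-29 guides, and neither passed the test. Others of the list lay below control on average, among them miR-22 at -0.42 ± 0.17 and miR-125b-5p at -0.26 ± 0.19 (limma adjusted p = 0.547 and 0.905). A share of 7.05% of mouse probes had all 4 T3R1 hearts above the control mean.

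**Figure D5:**
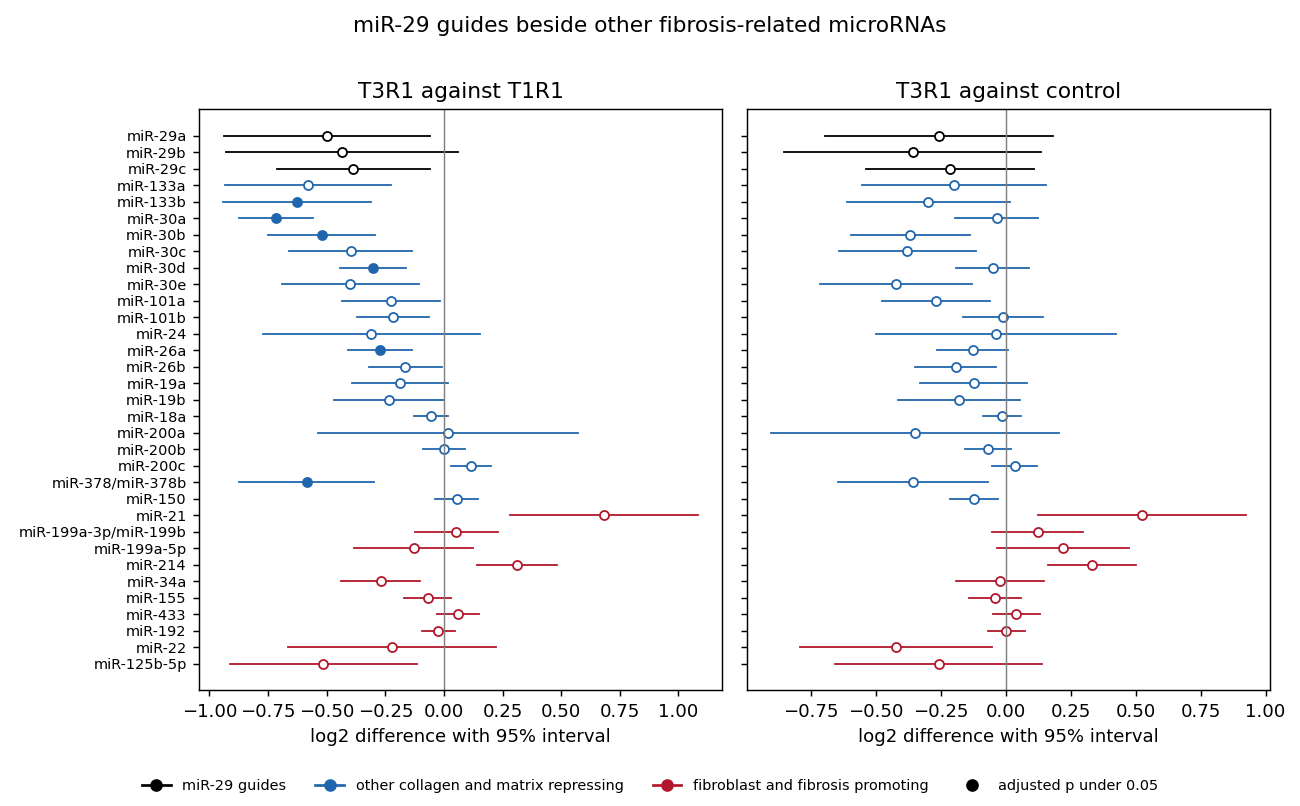
Log2 difference with its 95% interval (horizontal axes) of the 3 miR-29 guides, 20 other collagen and matrix repressing microRNAs and 10 probes of fibroblast and fibrosis promoting microRNAs (rows), for T3R1 against T1R1 (left) and T3R1 against control (right). Filled points have an adjusted p under 0.05 in limma: 6 of the 20 repressing microRNAs in the left panel and none in the right panel.

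Markers of several cell types were, by sign alone, also lower in T3R1 than in control, and like the guides none was called. How these signs depend on which control array is kept is not reported here. In whole tissue fewer cells of a type and less RNA per cell cannot be told apart. All 5 cardiac muscle markers on the array had a negative difference, T3R1 minus control (median -0.30), as had 2 of 2 endothelial markers (median -0.32), 3 of 3 erythroid markers (median -0.33) and 6 of 6 leukocyte markers (median -0.13). The 4 fibroblast marker probes had a positive one (median 0.28). Over all mouse probes the median was -0.0014, with 49.1% above 0, and over the 223 tested probes above background it was 0.0035. Above background in all 8 hearts were 3 of 5 muscle, 2 of 2 endothelial, 1 of 3 erythroid, 3 of 6 leukocyte and 2 of 4 fibroblast probes. A missing value counted as not above. The leukocyte marker miR-155 (-0.042) was above background in none of these hearts. The muscle marker miR-208b (-0.019) was above it in 2 T3R1 and 2 control hearts. None of these markers was called by limma in that comparison. An unadjusted p under 0.05 was reached by 2 muscle, 1 endothelial, 0 erythroid, 3 leukocyte and 2 fibroblast markers, where 7.14% of mouse probes reached it. In T3R1 against T1R1, the muscle marker miR-133b (-0.63), the endothelial marker miR-126-3p (-0.56) and the leukocyte marker miR-146a (-0.33) were called lower (limma adjusted p = 0.036, 0.036 and 0.0040). Of the 6 leukocyte markers, 1 went the other way there, miR-150 at 0.054, and the muscle marker miR-208b was at -0.0010, neither being called. The cardiac muscle marker miR-208a-3p lacked a value in 1 control heart, so its difference rests on 3 control hearts. That of the erythroid marker miR-451, T3R1 minus control, rests on 2 T3R1 and 2 control hearts. The summed level of the 4 cardiac muscle markers with a value in every heart ranged from 11.90 to 12.37 in T3R1 hearts, from 12.44 to 12.90 in T1R1 hearts and from 12.14 to 12.63 in control hearts (log2). That of the 4 fibroblast marker probes ranged from 9.37 to 9.77 in T3R1 hearts, from 9.16 to 9.52 in T1R1 hearts and from 9.04 to 9.55 in control hearts (log2). No neuron, liver or epithelial marker was above background in all 8 hearts of T3R1 and control, and 2 of 3 neuron, 2 of 2 liver and 4 of 5 epithelial markers were above it in none of these hearts. The part of cell content in the miR-29 differences was not tested.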

How the data were processed

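MicroRNA intensities were measured in 16 mouse heart samples on 8 arrays. Per the file headers, the deposited scanner files hold raw mean and local background intensities per spot from Agilent Feature Extraction 9.5.3.1. A deposited table holds the authors' log2 values, with a median of 3.76 in every column; its centring is not known, and it was used as an alternative only. The flags per spot and probe names were deposited too. Intensities were background-corrected (normexp, offset 50) and normalized by loess within arrays and Aquantile between arrays with limma 3.58.1 in R 4.3.3. Spots marked as outliers were left out, and the 4 spots of a probe were averaged. Array precision is limited by their number. Group means and a dye term were fitted over all samples with the array as a random block (correlation 0.25), and p-values were adjusted by Benjamini-Hochberg over the mouse probes, with calls at 0.05. The script was tested on simulated data. The named microRNAs were the members, their passenger strands, the 5 probes most correlated with each member, and called members of lists of matrix, fibrosis and cell type microRNAs; miR-21, miR-22 and miR-214, and fibrosis list members called under an alternative alone, were named after their values had been seen. Members and lists were chosen with earlier results of these data known. The smooth muscle list (2 probes) had 0 calls in any comparison. Its miR-143 had a value in 0 control hearts and 1 T2R1 heart, so it was not tested against control.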

Additional observations from a re-analysis of the deposited data

How the results depend on the processing

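The member differences were recomputed under 14 alternatives, without each of 16 samples and, as an alternative chosen after seeing the data, without each of 8 arrays. Under the alternatives, 201 values kept their direction and side of the threshold, 12 turned sign and 10 became called, 1 of which is among the 12 (miR-29b in T2R1 against control, with median scaling). Median scaling between arrays brought T1R1 minus control to 1.19, 1.01 and 1.00 for miR-29a, miR-29b and miR-29c, T2R1 minus control to 1.12, 0.81 (turned) and 0.82, T3R1 minus control to 0.25, 0.18 and 0.22 (turned, not called) and T3R1 minus T1R1 to -0.93, -0.83 and -0.78. It brought T3R1 minus T2R1 to -0.87 for miR-29a (limma adjusted p = 0.031). The cause was not tested. The other turned signs came without a call. T1R1 minus control for miR-29b was -0.0011 with offset 0, -0.062 with quantile normalization of all channels and -0.038 in the authors' deposited table. T2R1 minus control for miR-29c was -0.041 with offset 0. The same difference for miR-29b was 0.16 with no step between arrays and 0.028 with outlier spots kept. T2R1 minus T1R1 for miR-29a was 0.0020 with quantile normalization and 0.013 in the authors' deposited table.

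Calls over all mouse probes moved more than the members did. As reported, limma called 9, 9, 0, 0, 28 and 11 probes for T1R1, T2R1 and T3R1 against control, T2R1 against T1R1, T3R1 against T1R1 and T3R1 against T2R1. In that order the counts were 216, 201, 32, 0, 85 and 42 with median scaling, and 611, 658, 707, 0, 0 and 1 with no step between arrays, where 707 of the calls in T3R1 against control were lower. They were 1, 3, 0, 0, 4 and 4 with offset 0, and 6, 6, 0, 0, 3 and 4 from the extraction software's processed signals. Quantile normalization gave 1, 8, 0, 0, 7 and 6, and the values of the authors' deposited table gave 1, 7, 0, 0, 3 and 4. Testing only probes above background gave 4, 3, 0, 0, 15 and 3, and the array correlation of those probes, 0.643, gave 2, 3, 0, 0, 4 and 3. Averaging the samples of an array gave 0, 2, 0, 0, 2 and 2, and leaving the array block out gave 17, 16, 0, 0, 43 and 18.

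Leaving out a heart or an array, where a group left with 1 array is taken to vary like the others, gave the following ranges of log2 differences. For T1R1 against control they ran from -0.12 to 0.60 for miR-29a, -0.40 to 0.56 for miR-29b and -0.11 to 0.46 for miR-29c, with 4 to 45 mouse probes called. For T2R1 against control they ran from -0.16 to 0.57 for miR-29a, -0.55 to 0.41 for miR-29b and -0.093 to 0.16 for miR-29c, with 5 to 36 mouse probes called. For T3R1 against control they ran from -0.62 to 0.11 for miR-29a, -0.84 to 0.12 for miR-29b and -0.37 to -0.057 for miR-29c, with 0 to 19 mouse probes called. For T2R1 against T1R1 they ran from -0.24 to 0.17 for miR-29a, -0.28 to -0.0046 for miR-29b and -0.42 to 0.15 for miR-29c, with 0 to 1 mouse probes called. For T3R1 against T1R1 they ran from -0.80 to -0.19 for miR-29a, -0.72 to -0.15 for miR-29b and -0.67 to -0.10 for miR-29c, with 3 to 49 mouse probes called. For T3R1 against T2R1 they ran from -0.77 to -0.16 for miR-29a, -0.58 to -0.0040 for miR-29b and -0.41 to -0.092 for miR-29c, with 3 to 28 mouse probes called. The call among the members was miR-29c in T3R1 against T1R1, at -0.67 without the array of T1R1 replicates 1 and 2.

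The replicate numbers gave no sign of pairing hearts across groups. The deviations of same-numbered samples had a median correlation of -0.079 over 24 pairs, 9 of them over 0.1. For differently numbered samples it was -0.024 over 72 pairs, 33 of them over 0.1. These values cannot show that pairing was absent. The fit with the replicate number as a block called 14 probes in T2R1 against control and 6 in T3R1 against T2R1, and called no member.

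The main limits are that each group rests on 2 arrays, that slide run and exposure coincide in 4 of the 6 comparisons, and that miR-29c was the guide closest to background.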
